A study of Mus musculus with 8 samples.

Results

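Decorin and 9 related genes encode small leucine-rich proteoglycans, and their transcripts were measured in whole mouse mammary tumours with and without knockdown of miR-21 activity. The 10 genes are decorin (Dcn), lumican (Lum), biglycan (Bgn), fibromodulin (Fmod), osteoglycin (Ogn), Prelp, osteomodulin (Omd), asporin (Aspn), podocan (Podn) and keratocan (Kera). They were taken by name from the 27179 genes of the count table. Of the 10, 8 passed the filter on low counts and were tested among 14382 genes, while Omd and Kera were too low to be tested.

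Total RNA of 4 tumours from 4T1.13-VC cells and 4 tumours from 4T1.13-miR-21-KD cells was sequenced. The line 4T1.13 is a highly metastatic mouse mammary carcinoma line. Both lines carried a lentiviral vector with mCherry and a hygromycin resistance gene. The miR-21-KD vector used the H1 promoter to make an RNA that binds and holds mature miR-21. The vector of the control line (VC) made a scrambled RNA instead. Each line was a pool of several single-cell clones. Both groups were grown in the mammary fat pad of young adult female BALB/c mice, whose own cells kept miR-21. The sample labels give 100000 injected cells. The study's figure legends give a larger number for its 4T1.13 tumours in BALB/c mice. Tumours were taken at day 14 by the sample labels, when the miR-21-KD tumours had begun to shrink, and the study's methods give a slightly earlier day. Each value below is from 1 tumour, and the numbers 1 to 4 are those of the labels.

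Small leucine-rich proteoglycans are secreted core proteins built from leucine-rich repeats, most of which carry chondroitin, dermatan or keratan sulfate chains. They bind collagen fibrils and set their width and spacing, and several also hold growth factors such as TGF-beta in the matrix. In mammary tumours they are known mainly as products of fibroblasts. Expression is given in CPM (counts per 1e+06 counts), scaled for library size and composition. In whole tumours, fewer cells of a type and less RNA per cell cannot be told apart.

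The VC libraries held 12134849 to 13592695 counts and the miR-21-KD libraries 12550898 to 12783800 counts. A count of 0 therefore allowed a level of up to 0.221 to 0.244 CPM, which covers counting error only. No reads were counted for Mir21a, the gene of the miRNA, in any tumour, so knockdown could not be read from this table. Sequestration does not have to lower the precursor, and Vmp1, in which Mir21a lies, stood at 354 ± 18.3 CPM (SD, n = 4 VC) and 364 ± 16.1 CPM (n = 4 miR-21-KD). The 8 epithelial markers, of which 6 were higher and 1 lower after knockdown, summed to 1300 to 2260 CPM in the VC and 892 to 2000 CPM in the miR-21-KD libraries. Most of that sum was Krt8 (807 ± 173 and 438 ± 213 CPM, edgeR adjusted p = 0.0870) and Krt18 (1021 ± 244 and 459 ± 216 CPM, edgeR adjusted p = 0.0374). The 6 that were higher held the rest, so the sum does not follow the count. Over all tested genes, 39.1% passed the threshold of an adjusted p under 0.05, made up of 19.6% that were higher and 19.5% that were lower after knockdown.

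The sequence of the sequestered miRNA is shown first, because the knockdown RNA acts on it and because a matching stretch occurs in some of the 10 transcripts. The mature miRNA lies at chr11:86584120-86584141 on the minus strand (RefSeq, GRCm38.p6), and capitals mark its seed, bases 2 to 8.
miR-21a-5p: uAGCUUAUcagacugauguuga

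Seed matches were searched in the 3′UTR of 1 GENCODE M21 transcript per gene, as ATAAGCT (opposite bases 2 to 8) or TAAGCTA (opposite bases 2 to 7, then A). Of the 10 genes, Aspn and Omd held 1 match each and the other 8 held none. The Aspn match was at bases 644 to 650 of a 3′UTR of 926 bases, and the Omd match at bases 139 to 145 of 435 bases. Over all protein-coding genes with a 3′UTR, 2059 of 20643 (9.97%) held a match. Among other genes of the family, Ecm2 and Epyc held 1 site each, and that of Epyc meets both patterns. The sites of the 2 members and of Ecm2 are printed with the match in capitals. They are matches of letters only, and binding was not measured.
Aspn: tgatcagttatATAAGCTttgaagaacac
Omd: ggctttacttcATAAGCTtagagcttact
Ecm2: tactgttaattATAAGCTgacataaatgt

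All 8 tested proteoglycan genes were higher in miR-21-KD than in VC tumours (edgeR, adjusted p between 0.0179 and 0.04998, n = 4 per group), where 19.6% of all tested genes passed in that direction. Their log2 fold changes ran from 1.02 for Bgn to 2.13 for Ogn, with a median of 1.40, against a median of -0.01 over all tested genes. In 6 of the 8 the CPM values of the groups did not overlap. Of all tested genes, 16.4% were higher and 18.8% lower without overlap. No tested member was lower at an adjusted or an unadjusted p under 0.05, by edgeR, DESeq2 or limma-voom. The direction was the same for each tested member with every single tumour left out, but the calls were not. Without VC 3 edgeR called 0 of the 8, with adjusted p between 0.0540 and 0.123, while 7 had an unadjusted p under 0.05. Without VC 2, VC 4, miR-21-KD 1, miR-21-KD 3 or miR-21-KD 4 it called 3, 3, 2, 4 and 3. The share of all genes called also fell, from 39.1% to 20.1% without VC 3. In the order just given it was 22.5%, 38.8%, 26.5%, 25.8% and 23.3%, so it hardly changed without VC 4.

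**Figure D1:**
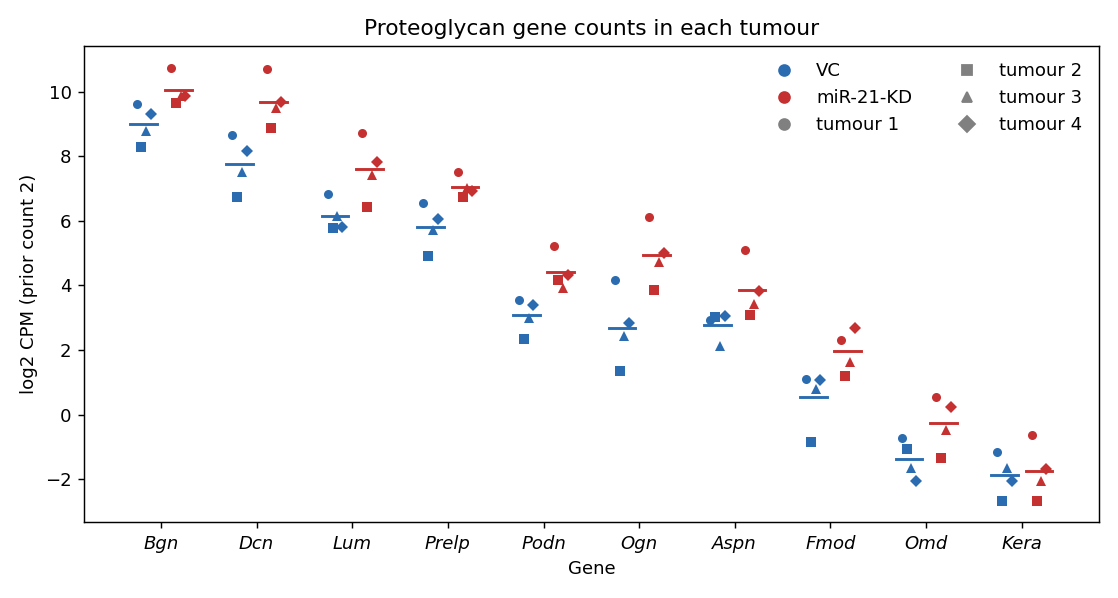
Expression of the 10 proteoglycan genes as log2 CPM (prior count 2, y axis) in each tumour, by gene (x axis), with VC in blue, miR-21-KD in red, tumour numbers as marker shapes and group means as bars. In each group the means of Bgn, Dcn, Lum and Prelp are above those of the other 6 genes, and VC 2 and miR-21-KD 2 are the lowest of their groups for most genes.

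Decorin, which binds collagen and sequesters TGF-beta, lies on chr10:97479609-97518143 (plus strand, GENCODE M21, GRCm38). It was at 406, 105, 182 and 288 CPM in VC tumours 1 to 4 and at 1652, 466, 717 and 820 CPM in miR-21-KD tumours 1 to 4. Every miR-21-KD tumour lay above every VC tumour, although the spread within each group was wide. The mean rose 3.73-fold, from 245 ± 131 to 914 ± 514 CPM (SD, n = 4), with a log2 fold change of 1.90 (SE 0.49, edgeR adjusted p = 0.0185). Between tumours of the same number, the difference in log2 CPM was 2.02, 2.14, 1.98 and 1.51. These 4 differences lay closer together than the tumours of either group did. This did not hold for every member. For tumours 1 to 4 the same differences were 2.174, 0.089, 1.304 and 0.777 for Aspn. For Lum they were 1.863, 0.656, 1.295 and 2.003.

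Biglycan is the closest relative of decorin, carries glycosaminoglycan chains near its amino terminus and can act as a ligand of Toll-like receptors when released from the matrix. Its gene lies on chrX:73483602-73495933 (plus strand). It was at 790, 308, 437 and 632 CPM in VC tumours 1 to 4 and at 1712, 808, 933 and 936 CPM in miR-21-KD tumours 1 to 4. The groups did not overlap, but VC 1 and miR-21-KD 2 were nearly level. The log2 fold change of 1.02 (SE 0.33, edgeR adjusted p = 0.0410) was the smallest of the 8, and the means were 542 ± 212 and 1097 ± 414 CPM.

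Asporin, a relative of both that lacks glycosaminoglycan chains, binds collagen and TGF-beta. It stood at 7.44, 7.89, 4.17 and 8.14 CPM in VC tumours 1 to 4 and at 34.1, 8.40, 10.5 and 14.1 CPM in miR-21-KD tumours 1 to 4. The groups were separated by the narrow gap between VC 4 and miR-21-KD 2, and miR-21-KD 1 was far above the rest. Its log2 fold change was 1.28 (SE 0.45), and its edgeR adjusted p of 0.04998 was just under the threshold. Without miR-21-KD 1 the log2 fold change was 0.67 (edgeR adjusted p = 0.104), and with library size alone as the scale its adjusted p was 0.0517. Aspn had the highest adjusted p of the 8, and it is 1 of the 2 members with a seed match.

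Lumican and fibromodulin are keratan sulfate proteoglycans that bind collagen. Lumican was at 114, 54.1, 70.1 and 55.6 CPM in VC tumours 1 to 4 and at 417, 85.4, 172 and 223 CPM in miR-21-KD tumours 1 to 4. The groups overlapped, since miR-21-KD 2 lay below VC 1, and the log2 fold change was 1.61 (SE 0.46, edgeR adjusted p = 0.0251). Fibromodulin was low, at 27, 5, 20 and 24 counts in VC tumours 1 to 4 and at 60, 27, 36 and 80 counts in miR-21-KD tumours 1 to 4. On the CPM scale its groups did not overlap, with means of 1.48 ± 0.745 and 4.03 ± 1.87 CPM and a log2 fold change of 1.44 (SE 0.50, edgeR adjusted p = 0.0486). Fmod was the only tested member with under 10 counts in a tumour, VC 2.

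Prelp, an arginine- and proline-rich member that anchors basement membranes to collagen, was at 94.4, 30.0, 52.6 and 65.6 CPM in VC tumours 1 to 4. In miR-21-KD tumours 1 to 4 it was at 184, 106, 130 and 121 CPM. All 4 values were above those of the VC tumours, and the log2 fold change was 1.16 (SE 0.32, edgeR adjusted p = 0.0236). Its gene on chromosome 1 shares 350 exon bases with the antisense transcript Gm15851 on the opposite strand. Whether reads were counted by strand is not given in the sources used here, so reads of the pair could not be told apart.

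Osteoglycin, also called mimecan, had the largest log2 fold change of the 8 and also the largest standard error, 2.13 (SE 0.64, edgeR adjusted p = 0.0307). It was at 17.7, 2.39, 5.20 and 6.92 CPM in VC tumours 1 to 4 and at 68.8, 14.4, 26.1 and 32.2 CPM in miR-21-KD tumours 1 to 4. VC 1 lay above miR-21-KD 2, so the groups overlapped, and without VC 1 the log2 fold change was 2.87 (edgeR adjusted p = 0.0128). Between tumours of the same number the difference in log2 CPM was 1.95, 2.52, 2.29 and 2.19, and the miR-21-KD tumour was higher in each.

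Osteomodulin, its neighbour, had 13 counts over the 4 VC tumours and 39 over the 4 miR-21-KD tumours. Single tumours held 6, 4, 2 and 1 counts in VC 1 to 4 and 16, 3, 7 and 13 counts in miR-21-KD 1 to 4, and the groups overlapped. When genes of any count were tested, its log2 fold change was 1.55 and its edgeR adjusted p was 0.0943.

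Podocan, a member found in matrix of smooth muscle, was at 11.6, 4.94, 7.72 and 10.3 CPM in VC tumours 1 to 4. It was at 37.1, 17.7, 14.8 and 19.8 CPM in miR-21-KD tumours 1 to 4. The groups did not overlap, and this call had the smallest adjusted p of the members, with a log2 fold change of 1.37 (SE 0.35, edgeR adjusted p = 0.0179). Keratocan, a keratan sulfate proteoglycan of the cornea, had 7 counts in all VC and 9 in all miR-21-KD tumours, and no difference was detectable at this depth.

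**Figure D2:**
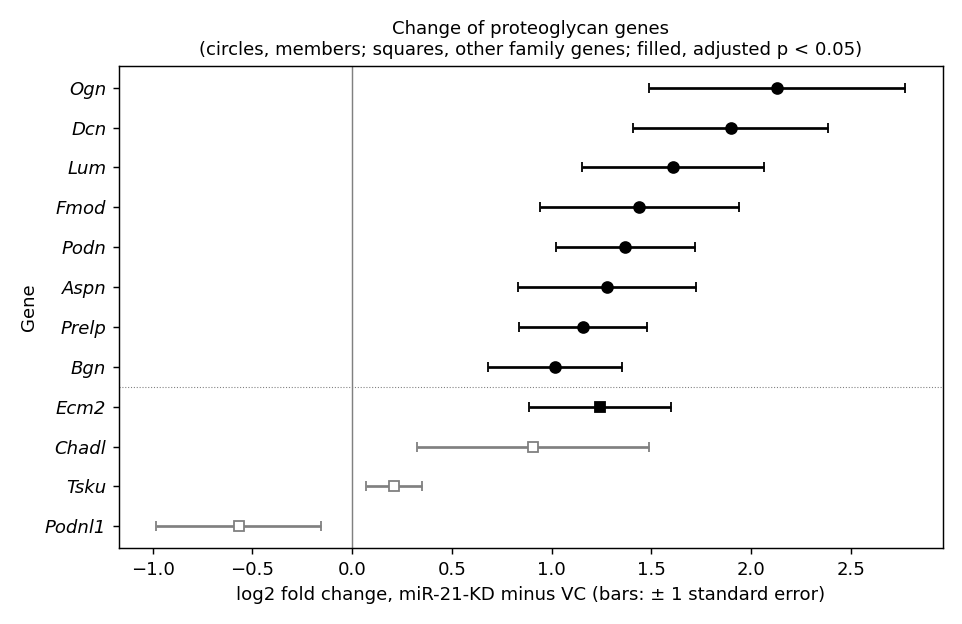
Log2 fold change of miR-21-KD against VC tumours (x axis, bars ± 1 standard error) for the 8 tested members (circles) and 4 other genes of the family (squares), with filled symbols for an edgeR adjusted p under 0.05. The members range from 1.02 for Bgn to 2.13 for Ogn, and of the other 4 genes Ecm2 passed, at 1.24.

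Of 8 other genes of the leucine-rich proteoglycan family, 4 could be tested and 1 was higher. Ecm2, a matrix protein with leucine-rich repeats, rose from 2.37 ± 0.558 to 5.62 ± 2.61 CPM (log2 fold change 1.24, SE 0.36, edgeR adjusted p = 0.0256), with overlap of the groups. Chadl was at 0.503 and 0.959 CPM, and Tsku, a secreted modulator of growth factor signalling, at 41.9 and 48.4 CPM. Podnl1, a relative of podocan, was at 22.9 and 15.4 CPM. These 3 had log2 fold changes of 0.91, 0.21 and -0.57 and did not pass (edgeR adjusted p = 0.235, 0.250 and 0.292). Epyc, Optc, Chad and Nyx were too low to be tested.

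Per kilobase of exon, the members differed widely in level. In VC tumours Bgn stood first at 224 CPM per kb, followed by Dcn at 127, Lum at 30.1 and Prelp at 16.8 CPM per kb. Ogn, Aspn and Podn followed at 3.14, 2.94 and 2.68 CPM per kb, then Fmod at 0.474, Omd at 0.111 and Kera at 0.0585 CPM per kb. In miR-21-KD tumours Dcn was first at 471 and Bgn next at 454 CPM per kb, and the other 8 kept their order. The first place of Dcn rested on miR-21-KD 1, since without it the means were 344 for Dcn and 369 CPM per kb for Bgn. The order of Ogn, Aspn and Podn also rested on single tumours. Without VC 1 their VC means were 1.88, 2.86 and 2.37 CPM per kb, and without VC 2 Podn (3.06 CPM per kb) was above Aspn (2.80 CPM per kb). Without miR-21-KD 1 the miR-21-KD mean of Aspn was 4.67 and that of Podn 5.41 CPM per kb. The ranges of Bgn and Dcn overlapped in both groups, as did those of Lum and Prelp, Ogn and Aspn, Aspn and Podn, and Omd and Kera. Fmod and Omd overlapped in VC tumours alone.

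The proteoglycan reads made up 0.144%, 0.0523%, 0.0766% and 0.108% of all counted reads in VC tumours 1 to 4 and 0.404%, 0.153%, 0.194% and 0.218% in miR-21-KD tumours 1 to 4. Each miR-21-KD tumour was above each VC tumour. In every tumour Dcn, Bgn and Lum together held 90.1% to 92.0% of these reads.

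Within that share, Dcn and Bgn reads were compared directly. The ratio of Dcn to Bgn reads was 0.514, 0.341, 0.416 and 0.456 in VC tumours 1 to 4 and 0.965, 0.577, 0.769 and 0.876 in miR-21-KD tumours 1 to 4. The lowest miR-21-KD tumour was above the highest VC tumour, although Bgn reads still outnumbered Dcn reads in each. The ratio of Lum to Dcn reads overlapped, at 0.282, 0.514, 0.386 and 0.193 in VC tumours 1 to 4 and 0.252, 0.183, 0.240 and 0.272 in miR-21-KD tumours 1 to 4. Of the 28 pairs of tested members, 2 had log2 ratios that did not overlap between groups, Dcn to Bgn, higher by 0.87, and Dcn to Prelp, higher by 0.67 in miR-21-KD tumours. These are 7.14% of the pairs, while 34.6% of all pairs of tested genes did not overlap. The separation of these ratios is therefore not particular to the members, and they were described without a test.

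**Figure D3:**
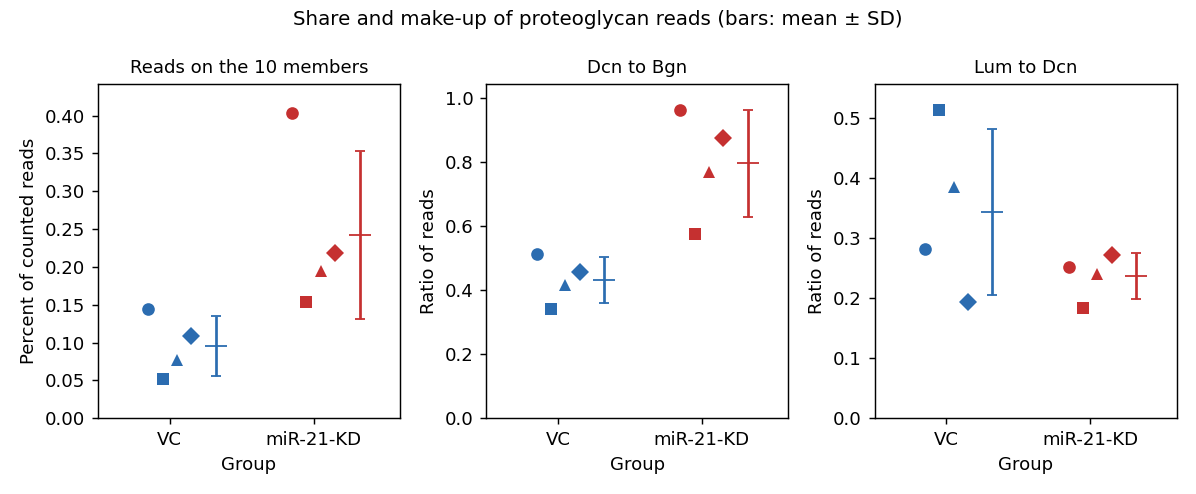
Percent of counted reads on the 10 members (left), the ratio of Dcn to Bgn reads (middle) and the ratio of Lum to Dcn reads (right) in each tumour of both groups, with circles, squares, triangles and diamonds for tumours 1 to 4 and bars for mean ± SD. The share and the Dcn to Bgn ratio are separated between groups, with VC at most 0.144% and 0.514, and the Lum to Dcn ratio overlaps.

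The members varied together among tumours of 1 group. VC 1 was the highest VC tumour for 7 of the 8 tested members and VC 2 the lowest for 7, while miR-21-KD 1 was the highest and miR-21-KD 2 the lowest of their group for 7 each. After removal of the group means, Pearson's r between members over the 8 tumours had a median of 0.795 and ran from 0.268 to 0.982, which describes tumours that share a library per value. With the mean profile of the other 7 tested members, Dcn had an r of 0.992, Ogn 0.970 and Bgn 0.962, and Aspn the lowest at 0.588. The genes outside the members with the profile most similar to the mean of all 8 were Ndnf (0.997), Aebp1 (0.995), Olfml1 (0.991), Epb41l3 (0.989), Tshz3 (0.984) and Gpr141b (0.984). Aebp1 encodes a collagen-binding matrix protein. The 14 fibroblast markers described below had an r with this profile from 0.508 for Pdgfra to 0.982 for Col3a1. The shared variation is therefore not particular to the members.

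Several members are neighbours in the genome. On chromosome 10, Dcn, Lum (97565128-97572703) and Kera (97606879-97613692) lie in a row, with 47.0 and 34.2 kb between them, and all are on the plus strand. There the first and the second were called higher, and Kera was near 0. On chromosome 13, Aspn (49544443-49567565), Omd (49582462-49592822) and Ogn (49608046-49624501) follow Ecm2 on the plus strand with 11.7, 14.9 and 15.2 kb between genes. Ecm2, Aspn and Ogn were higher, while Omd was too low to be tested. These 4 lie within the span of Cenpp, which is on the opposite strand and shares 0 exon bases with each member there. On chromosome 1, Prelp (133910304-133921414, minus strand) and Fmod (134037254-134048277, plus strand) lie 115.8 kb apart. Podn is alone on chromosome 4 (108014791-108096445, minus strand).

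The proteoglycans were also set beside markers of the cell types that a tumour can hold. Of 14 fibroblast markers, none of them a member, 12 were higher in miR-21-KD tumours, and their summed level was 3328 to 8624 CPM in VC against 11244 to 24053 CPM in knockdown tumours. Pdgfra, a receptor that defines fibroblasts, was at 228 and 178 CPM (edgeR adjusted p = 0.176), and none of the 14 was at 0. Averaged over these markers, log2 CPM was 7.56, 6.37, 6.87 and 7.17 in VC tumours 1 to 4 and 8.83, 7.74, 8.07 and 8.21 in miR-21-KD tumours 1 to 4. Within each group these means put the tumours in the same order as Dcn did. The part of this shift in the member results was not tested.

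Relative to the mean of the fibroblast markers, most differences of the members between groups were small. The log2 level of Dcn against that mean averaged 0.77 ± 0.346 over the VC tumours and 1.47 ± 0.301 under knockdown, 0.70 higher and without overlap. For the other 7 the groups overlapped, with differences of 1.02 for Ogn, 0.24 for Lum, 0.20 for Fmod, 0.12 for Podn, 0.02 for Prelp, -0.13 for Aspn and -0.18 for Bgn. Between tumours of the same number, the relative level was higher in the miR-21-KD tumour in 4 of 4 pairs for Ogn (by 0.68, 1.15, 1.09 and 1.16) and for Dcn (by 0.76, 0.78, 0.78 and 0.47). The other 6 had pairs in both directions. These relative values were given without a test and depend on the markers chosen. Col1a1, Col1a2, Col3a1 and Loxl1 are matrix genes that also stand in the collagen and cross-linking lists below. Pdgfra had a log2 fold change of -0.36, below those of all 8 tested members.

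Markers of other cells also moved. Of 8 adipocyte markers 8 were higher, with summed levels of 112 to 445 CPM in VC against 603 to 1566 CPM in knockdown tumours, and of 10 macrophage markers 8 were higher (3399 to 5211 and 6258 to 10617 CPM). Of 9 T cell markers 6 were higher, with sums of 55.6 to 212 and 185 to 399 CPM. Of 11 pericyte and smooth muscle markers 6 were higher and 1 lower (463 to 629 and 630 to 944 CPM). Sums of endothelial markers (485 to 809 and 683 to 950 CPM), neutrophil markers (294 to 797 and 384 to 674 CPM) and mast cell markers (168 to 368 and 269 to 340 CPM) overlapped. So did those of Schwann cell (45.1 to 53.6 and 44.2 to 97.4 CPM) and skeletal muscle markers (6.84 to 11.7 and 4.61 to 10.7 CPM). Sums of tendon markers (15.6 to 30.6 and 4.84 to 14.9 CPM) and of bone and cartilage markers (131 to 148 and 74.0 to 124 CPM) were lower. Most of the tendon sum was Scx (17.6 and 6.17 CPM, edgeR adjusted p = 0.0183). Most of the bone and cartilage sum was Runx2 (65.2 and 49.7 CPM) and Sox9 (60.1 and 37.4 CPM). Neither of these passed (edgeR adjusted p = 0.101 and 0.0517), and the 2 called lower, Alpl and Ibsp, held little of that sum. With the tumours blocked by number, 8 T cell and 8 pericyte and smooth muscle markers were higher, and calls were gained for neutrophils (2 higher), endothelial cells (2 higher and 1 lower against 1 higher), Schwann cells (2 higher against 1), epithelial cells (2 lower against 1) and bone and cartilage (4 lower against 2). No marker of these lists was at 0 in all 8 tumours. The means of several, such as Ckm, Sp7 and Acan, were nevertheless below the limit given for a count of 0. Only 3 of 8 skeletal muscle and 5 of 9 bone and cartilage markers could be tested. The part of the marker changes in the result was not tested.

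**Figure D4:**
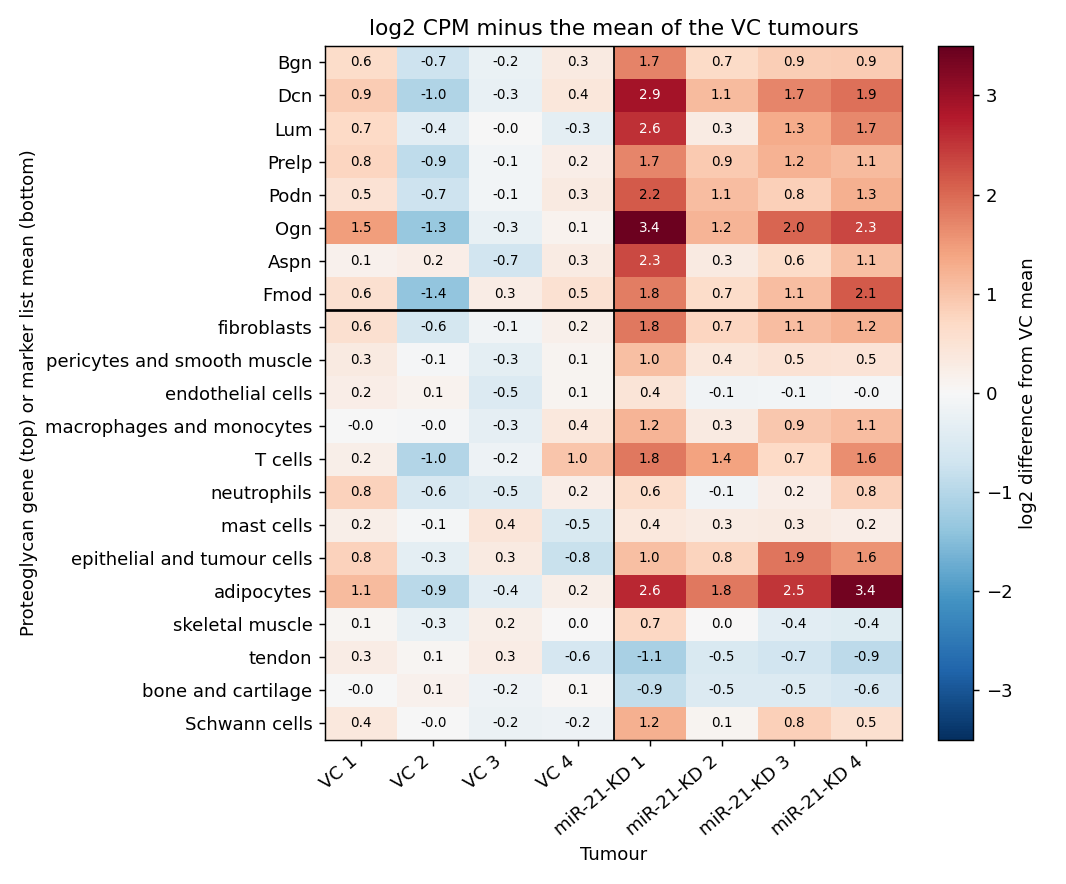
Difference in log2 CPM from the mean of the VC tumours (colour and printed value) for the 8 tested members (upper rows) and for the mean of each marker list (lower rows), in each of the 8 tumours (columns). The members and 8 of the 13 lists (fibroblasts, pericytes, macrophages, T cells, mast cells, epithelial cells, adipocytes and Schwann cells) are above the VC mean in all miR-21-KD tumours.

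The rest of the family, other proteoglycans and genes that build, bind or cut proteoglycans were described from 8 lists, which together held 156 genes. Knockdown tumours had 58 of the 141 tested genes higher and 21 lower (edgeR, adjusted p under 0.05), with a median log2 fold change of 0.37, where 39.1% of all tested genes passed in either direction. Without VC 3, 33 were higher and 13 lower. Without VC 2 and without miR-21-KD 4, 13 and 12 were lower.

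The enzymes of chondroitin and dermatan sulfate chains moved in both directions, with 10 of 26 higher, 5 lower and a median log2 fold change of 0.09. Papss2, which makes the sulfate donor, rose from 20.4 ± 5.97 to 53.8 ± 9.98 CPM (log2 fold change 1.40, edgeR adjusted p = 0.00585). Papss1, which makes the same donor, was lower at 53.5 ± 3.88 against 73.3 ± 7.14 CPM (-0.45, edgeR adjusted p = 0.00977). Dse, the epimerase that turns chondroitin into dermatan sulfate, rose by 0.76 on the log2 scale to 121 ± 17.6 CPM (edgeR adjusted p = 0.00675). Chpf2, a chondroitin polymerising factor, rose by 0.56 on the log2 scale to 79.3 ± 8.78 CPM (edgeR adjusted p = 0.00701). In each of these enzymes the groups did not overlap.

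Of 12 tested enzymes of keratan sulfate synthesis, 1 was higher and 4 were lower, with a median of -0.12, or 2 and 5 when tumours were blocked by their number. The share that passed was near the 39.1% of all tested genes. B3gnt7, which extends the keratan chain, had a log2 fold change of 0.79 (26.8 ± 4.46 to 46.2 ± 9.15 CPM, edgeR adjusted p = 0.0104). The galactosyltransferase B4galt2 had one of -0.63 (edgeR adjusted p = 0.0118). The sulfotransferase Chst2 went from 26.1 ± 4.69 to 13.4 ± 3.86 CPM, a log2 fold change of -0.96 (edgeR adjusted p = 0.0121).

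Of 14 tested fibrillar and fibril-associated collagens, the partners that the proteoglycans bind, 10 were higher and their median was 1.27. Col5a3 rose from 137 ± 39.8 to 388 ± 69.6 CPM (edgeR adjusted p = 0.00558), and Col5a2 from 408 ± 163 to 1090 ± 289 CPM (log2 fold change 1.42, edgeR adjusted p = 0.0105). Type V collagen lies in the core of type I fibrils. Col6a3, of the beaded filaments to which biglycan and decorin attach, rose from 348 ± 79.8 to 662 ± 146 CPM (0.93, edgeR adjusted p = 0.0115). The other chains of these filaments did not pass, with Col6a1 at 846 ± 301 and 604 ± 108 CPM (-0.48, edgeR adjusted p = 0.132) and Col6a2 at 534 ± 121 and 663 ± 108 CPM (0.31, edgeR adjusted p = 0.190).

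The 27 genes of collagen cross-linking and fibril assembly had 10 higher, 3 lower and a median of 0.37. Fn1, fibronectin, rose from 2684 ± 696 to 9002 ± 2705 CPM (log2 fold change 1.75, edgeR adjusted p = 0.00585). Fkbp10, a collagen chaperone, rose from 38.8 ± 7.86 to 78.8 ± 14.9 CPM (1.02, edgeR adjusted p = 0.00699). Pcolce, an enhancer of procollagen C-proteinase, was lower at 247 ± 26.3 against 401 ± 53.2 CPM (-0.70, edgeR adjusted p = 0.00681).

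Of 25 tested ligands and receptors of the proteoglycans, 11 were higher and 2 lower, with a median of 0.45. Ccn2, a matricellular protein that decorin binds, rose by 1.20 on the log2 scale to 166 ± 18.3 CPM (edgeR adjusted p = 0.00558). Tlr4, a receptor for biglycan, rose by 0.64 on the log2 scale to 82.7 ± 12.3 CPM (edgeR adjusted p = 0.0138).

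Among 15 tested proteases able to cut the core proteins, 6 were higher and 2 lower, with a median of 0.55. Mmp9, a gelatinase, rose from 622 ± 71.0 to 2112 ± 628 CPM (log2 fold change 1.76, edgeR adjusted p = 0.00501). Mmp13, a collagenase that cleaves fibromodulin, rose from 455 ± 198 to 1975 ± 174 CPM (2.12, edgeR adjusted p = 0.00585). Ctsk, the collagen-degrading cathepsin, rose from 106 ± 35.7 to 438 ± 183 CPM (2.04, edgeR adjusted p = 0.00694). Htra1, a secreted serine protease with the same adjusted p of 0.00694 (edgeR), was lower at 181 ± 70.5 against 471 ± 43.7 CPM (-1.38).

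Of 18 tested core proteins of other proteoglycans, 9 were higher and 5 lower, with a median of 0.70. Serglycin (Srgn), the intracellular proteoglycan of blood cells, rose from 664 ± 275 to 2307 ± 543 CPM (1.80, edgeR adjusted p = 0.00680). Cspg4, a membrane proteoglycan of pericytes, rose from 6.04 ± 1.46 to 16.1 ± 4.79 CPM (1.41, edgeR adjusted p = 0.00820). Syndecan 2 (Sdc2), a heparan sulfate proteoglycan of the cell surface, was lower at 92.6 ± 20.2 against 184 ± 34.1 CPM (-0.99, edgeR adjusted p = 0.00742).

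**Figure D5:**
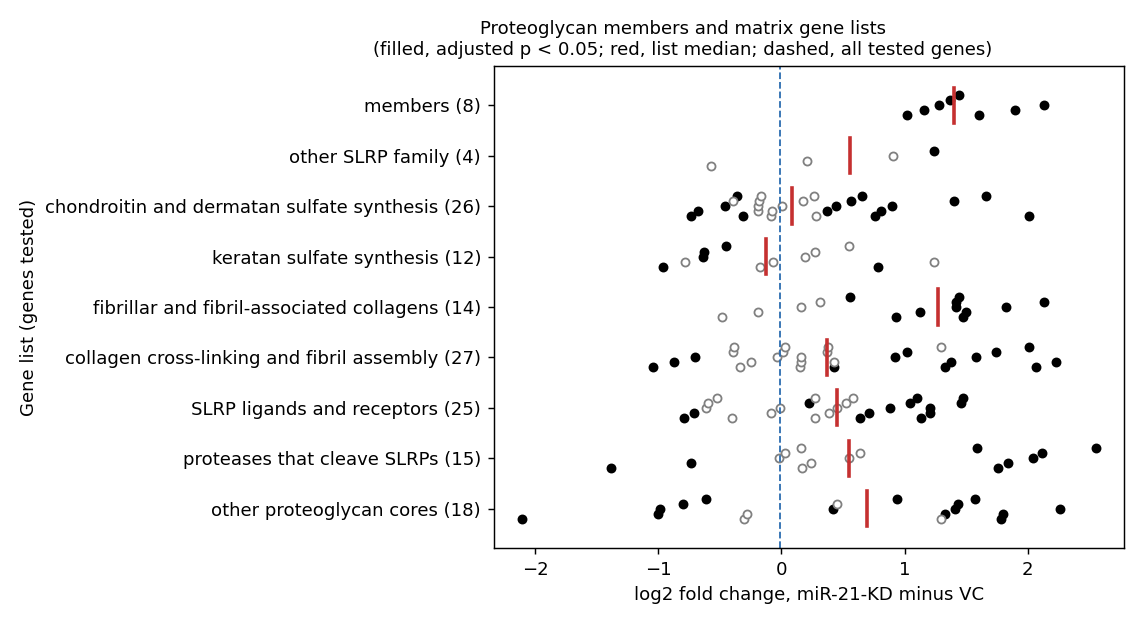
Log2 fold change of miR-21-KD against VC tumours (x axis) for each tested gene of the members and of 8 matrix gene lists (rows, with the number tested), filled for an edgeR adjusted p under 0.05, with list medians in red and the median of all tested genes as a dashed line. The member median is 1.40 and the collagen median 1.27, while those of the chain-building enzymes are 0.09 and -0.12.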

How the data were processed

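RNA sequencing of 8 whole tumours was analysed, 4 per group. The table that the authors deposited holds unnormalised read counts by Entrez identifier, 1 column per tumour, and all columns were used. Their processing notes name Subread, featureCounts, edgeR, limma and build mm10. Versions, annotation and strand setting are not given in the sources used here. Symbols came from the RefSeq table of GRCm38.p6, which matched 25275 of 27179 identifiers. Positions, exon lengths and transcripts came from GENCODE M21.

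Counts were analysed with edgeR 4.0.16 under R 4.3.3. After the filterByExpr filter (minimum count 10, minimum total 15), libraries were scaled by TMM and the groups compared by the robust quasi-likelihood test, with Benjamini-Hochberg adjustment over all 14382 tested genes and a threshold of 0.05. Standard errors came from the estimate and its F statistic, and log2 CPM used a prior count of 2. The limit for a count of 0 was 3 counts. The fit was tested on simulated data. Alternatives used DESeq2 1.42.0, limma 3.58.1, other scalings, filters and thresholds, the replicate number as a block, and each tumour left out. Tumours of a group differed by more than sampling noise (chi-square per degree of freedom 12.6 to 70.7). They were numbered as separate tumours, and p-values set the difference between groups against the spread between tumours. All tumours of a group came from the same pool of clones. Other differences between the lines therefore cannot be told apart from knockdown.

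The labels do not say what the numbers share. After removal of group means, tumours of the same number correlated at r = 0.272, 0.421, 0.175 and 0.376 over all tested genes. Each was over 0.1, and the numbers were taken as pairs from the data. Some tumours of different number also correlated, VC 3 with miR-21-KD 2 at 0.393 and VC 4 with miR-21-KD 1 at 0.334. The first was above the own number of VC 3, and the second above that of miR-21-KD 1. The pairing is therefore uncertain. Blocked fits and same-number differences rest on it and are descriptions, not separate support. The members and lists were chosen with earlier results of these data known. Named genes were the members, the rest of the family, the 3 genes of smallest adjusted p in each list, the 6 genes of most similar profile over the tumours (mean log2 CPM of at least 1), and Mir21a and Vmp1. Pdgfra, Papss1, Col6a1, Col6a2 and Htra1, which tied for the third place of its list, were added after their values were seen. One gene that this rule names is not reported here.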

Additional observations from a re-analysis of the deposited data

Results flagged for a closer look

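Of 28 sets of 4 tumours examined for a value far from the others (the CPM of each member, the share of reads, the read ratios and the fibroblast marker mean, in each group), 1 stood apart by Dixon's criterion. Biglycan was at 1712 CPM in miR-21-KD 1, against 936 CPM in the next tumour, a gap of 0.859 of the range of the group. Chance gives such a value in about 1 of 20 sets. Without this tumour the log2 fold change of Bgn was 0.72 (edgeR adjusted p = 0.0997), against 1.02 with all tumours. The same tumour was the highest of its group for 7 of the 8 tested members.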

How the results depend on the processing

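Every log2 fold change of the 8 tested members stayed positive under all alternatives in which the gene was tested, from 1.45 to 2.25 for Dcn, 0.72 to 1.26 for Bgn and 0.67 to 1.49 for Aspn. The calls were less stable. The edgeR count of 8 members became 4 without a filter on low counts (Dcn, Lum, Prelp and Podn), with 9 of 10 at an unadjusted p under 0.05. It became 0 for a change tested against 1.5-fold, and 0 at an adjusted p under 0.01, where all 8 had an unadjusted p under 0.05. With single tumours left out it ranged from 0 to 8, and the count of lower members was 0 each time. DESeq2 called 8 and limma-voom 6. More genes were adjusted for without the filter (20730); the cause of the other changes was not tested. For the matrix lists, 12 higher and 2 lower genes passed against 1.5-fold, and 18 and 7 at 0.01, with 33 to 64 higher and 12 to 27 lower over single tumours left out. Over all genes 542 passed against 1.5-fold, 1426 at 0.01, and 2936 to 6840 with 1 tumour left out. With the replicate number as a block, 8 members, 60 higher and 22 lower list genes and 6485 genes overall were called, the member adjusted p ran from 0.00132 to 0.0443, and no member call changed. Depth limits Fmod, Omd and Kera.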
